A study of Mus musculus with 4 samples.

Results

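The promoters described here are those of the genes for cytosolic ribosomal proteins, in chromatin of mouse hippocampal neurospheres with and without a floxed Fgf13 gene. A promoter was taken from the deposited region table where a region lay within 1000 bp of the annotated start site and its gene name had the form of a ribosomal protein gene (Rpl, Rps, Rplp or Rpsa). Names of S6 kinases and pseudogenes were left out. This gave 71 genes of 11163 with a promoter region. Each of the 71 held exactly 1 region, and all 71 were among the 11116 promoters tested. They comprised 67 core ribosomal protein genes, 25 of the small 40S and 42 of the large 60S subunit. The other members were the 3 paralogues Rpl7l1, Rpl22l1 and Rps27l, and Rps19bp1, a name match that encodes a binding partner of Rps19 and no ribosomal protein.

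Accessibility was measured by ATAC-seq, in which the Tn5 transposase cuts and tags open DNA, so that the number of tags in a region reports how open it was. The Fgf13cko group held 2 cultures of genotype hGFAPCre+, Fgf13 flox/y, and the CTRL group 2 cultures of genotype hGFAPCre+, Fgf13+/y. Every culture came from the hippocampus of C57BL/6 mice at P0, the day of birth, and was grown for 7 days as neurospheres, balls of progenitor cells that grow in suspension, with FGF-2 and EGF at 20 ng/ml each. Fgf13 is X-linked and encodes an intracellular protein of the FGF family, and the design compares open chromatin with and without it. Both groups carried the Cre transgene, which is driven by a human GFAP promoter, so cells in which Cre was inactive kept the floxed allele. Cells from 1 mouse were split over 2 wells. Whether a group's cultures stem from different mice is not stated, so each p-value reflects the spread between the given samples, part of which may be technical.

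Ribosomal protein genes are transcribed by RNA polymerase II from short, broadly active, CpG-rich promoters, and their products assemble with ribosomal RNA in the nucleolus. Their transcripts typically begin with a C inside a run of pyrimidines, the 5' terminal oligopyrimidine (TOP) motif, through which mTOR controls their translation. Progenitor cells depend on high ribosome production, and loss of a single gene copy of some of these proteins causes Diamond-Blackfan anaemia in humans.

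The start-site sequences of members from the low and the high end of the fold changes are shown to let the promoters be compared. They come from RefSeq on GRCm38.p6, from 60 bases before to 20 bases from the start site, read 5' to 3' along the gene. Capitals mark the longest run of C and T that reaches within 5 bases of the start site.
Rps7 (chr12:28635934-28636013, minus strand): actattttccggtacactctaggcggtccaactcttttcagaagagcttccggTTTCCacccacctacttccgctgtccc
Rps24 (chr14:24490693-24490772, plus strand): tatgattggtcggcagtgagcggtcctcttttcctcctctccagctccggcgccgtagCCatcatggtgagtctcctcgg
Rpl18 (chr7:45718011-45718090, plus strand): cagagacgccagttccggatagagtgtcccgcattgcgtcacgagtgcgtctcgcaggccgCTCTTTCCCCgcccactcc
Rps10 (chr17:27635225-27635304, minus strand): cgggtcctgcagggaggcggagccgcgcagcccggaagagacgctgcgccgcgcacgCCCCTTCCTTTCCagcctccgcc
Rps15a (chr7:118116128-118116207, minus strand): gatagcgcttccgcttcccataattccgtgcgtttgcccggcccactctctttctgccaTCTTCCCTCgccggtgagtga
Rplp2 (chr7:141447591-141447670, plus strand): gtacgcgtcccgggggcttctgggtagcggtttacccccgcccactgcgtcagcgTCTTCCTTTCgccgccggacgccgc
Rps13 (chr7:116334171-116334250, minus strand): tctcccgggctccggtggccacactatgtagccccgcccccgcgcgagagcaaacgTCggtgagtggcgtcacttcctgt
Rpl35 (chr2:39005112-39005191, minus strand): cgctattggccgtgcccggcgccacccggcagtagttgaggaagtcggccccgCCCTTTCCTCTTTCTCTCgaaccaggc
The first 4 genes are from the low end and the last 4 from the high end. At the annotated start, both ends hold long and short runs: 13 bases at Rps10 and 18 at Rpl35, against 2 bases at Rps24 and 2 at Rps13. The lengths depend on where the start is annotated. At Rps24 a longer run of C and T, tcctcttttcctcctctcc, lies further upstream in the printed window.

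Of the 71 members, 54 had an entry in the RefSeq promoter table, which holds 250 bases before and 50 bases after each start. The share with a TOP-like start was higher in the members than over the 8547 tested promoters with an entry. A pyrimidine run of at least 8 bases at the start was present in 18 of 54 members (33.3%) and in 9.55% of all promoters, and the first base was C in 31.5% of members and 14.7% of all promoters. The ETS motif CCGGAAG, searched on both strands, was found in 20 members (37.0%) and in 18.1% of all promoters, and the YY1 motif AAGATGG in 13.0% of members and 7.16% of all promoters. GGGCGG (66.7% and 69.5%), CACGTG (7.41% and 10.4%), GCGCATGC (5.56% and 5.84%) and TATAAA (9.26% and 5.87%) were at shares closer to those of all promoters. The median GC content was 58.2% in members and 62.0% in all promoters. These are counts of letters in a fixed window and were not tested. The shares of runs and of a first C depend on where the start is annotated.

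Within the libraries, the ribosomal protein promoters were open to about the level of other promoters. Their level per length, as normalised count (tags over the library's relative effective size) per kb of region, averaged over the 4 libraries, had a median of 114 (quartiles 79.8 and 158), against 99.1 (65.5 and 159) over all tested promoters. The regions were 497 to 1543 bp long, with a median of 900 bp, against 1012.5 bp for all promoters. Of the 71 regions, 60 were centred within 200 bp of the start site, and the extremes were -466 and 519 bp. Every member had a peak in all 4 of the authors' peak lists, which entry to the region table requires. The authors' fold enrichment at these peaks had a median of 5.78 and 5.49 in the Fgf13cko lists and 6.02 and 6.59 in the CTRL lists. The members' median place among all peaks of a list was the 81.7th and 77.9th percentile in Fgf13cko and the 80.1th and 86.9th in CTRL.

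The highest levels per kb were at Rpl37 (370), Rpl15 (366) and Rps19 (330), and the lowest at Rpl7l1 (39.4), Rps4x (42.7), Rpl6 (44.5) and Rpl4 (47.0). Rpl37 and Rpl15 encode core 60S proteins, and Rps19 is the 40S gene most often mutated in Diamond-Blackfan anaemia. At Rpl37 the normalised counts were 354 and 323 in Fgf13cko and 396 and 365 in CTRL. At Rpl15 they were 365 and 305 in Fgf13cko and 326 and 370 in CTRL. Both Fgf13cko libraries lay below both CTRL libraries at Rpl37, while the groups overlapped at Rpl15. At Rps4x, the X-linked 40S gene with few tags, they were 22.2 and 33.5 in Fgf13cko and 30.2 and 33.0 in CTRL, and the groups overlapped.

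Before the comparison, the libraries differed in ways that bear on it. The header gave 16.8 and 13.1 M tags for Fgf13cko and 24.9 and 26.0 M for CTRL, but mitochondrial regions took 38.5% and 31.5% of region tags in Fgf13cko and 67.7% and 68.4% in CTRL. Nuclear regions kept 2.55 and 2.63 M tags in Fgf13cko and 2.78 and 3.25 M in CTRL. The median tags per member promoter were 80 and 80 in Fgf13cko and 101 and 130.5 in CTRL. Promoter regions were found for all 12 neural progenitor markers that were looked at, among them Sox2, Nes, Pax6 and Vim. No region lay over a known floxed exon, which the labels do not name, so the deletion itself could not be checked. The Fgf13 promoter regions had log2 fold changes of -0.21 (adjusted p = 0.649) and 0.00 (adjusted p = 0.999; edgeR over all regions).

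In Fgf13cko the ribosomal protein promoters leaned towards lower accessibility relative to all promoters, and no single gene passed the threshold. The members' median log2 fold change minus that of all promoters lay between -0.24 and -0.17 over the settings tried. The median log2 fold change of Fgf13cko over CTRL was -0.22 over the 71 members, with quartiles of -0.43 and 0.05, against -0.01 over all 11116 promoters. A negative log2 fold change was seen at 50 of 71 members (70.4%), against 50.9% of all promoters. The edgeR quasi-likelihood test with Benjamini-Hochberg adjustment over all promoters called 0 members lower and 0 higher at an adjusted p of 0.05, where it called 0.477% of all promoters lower and 1.95% higher. The adjusted p of the members ran from 0.0636 to 0.99. At an unadjusted p under 0.05, 14 members (19.7%) were lower, against 7.54% of all promoters, and 3 members (4.23%) were higher, against 11.7% of all promoters. DESeq2's Wald test also called 0 members in either direction. It gave no adjusted p at some members, among them Rps7, Rpl18 and Rps10, so those could not be called by it.

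The calls depended on which library was left out, and such a fit leaves 1 library in a group, so only medians are given here. The members' median was -0.19 without Fgf13cko replicate 1 and -0.21 without Fgf13cko replicate 2. It was -0.25 without CTRL replicate 1 and -0.22 without CTRL replicate 2. Over all promoters the medians of these fits were 0.00, 0.00, 0.00 and -0.01, in the same order. Scaling moved the centre of all promoters. With library sizes over nuclear tags only, the median of all promoters was -0.13 and that of the members -0.34, Rps7 was called lower, and 77 promoters were higher and 81 lower, against 217 and 53 with TMM scaling. With library sizes that count the mitochondrial tags, the medians were 0.68 for the members and 0.89 for all promoters, 48 of 71 members were called higher, against 81.3% of all promoters, and the members' median minus that of all promoters stayed at -0.21.

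**Figure D1:**
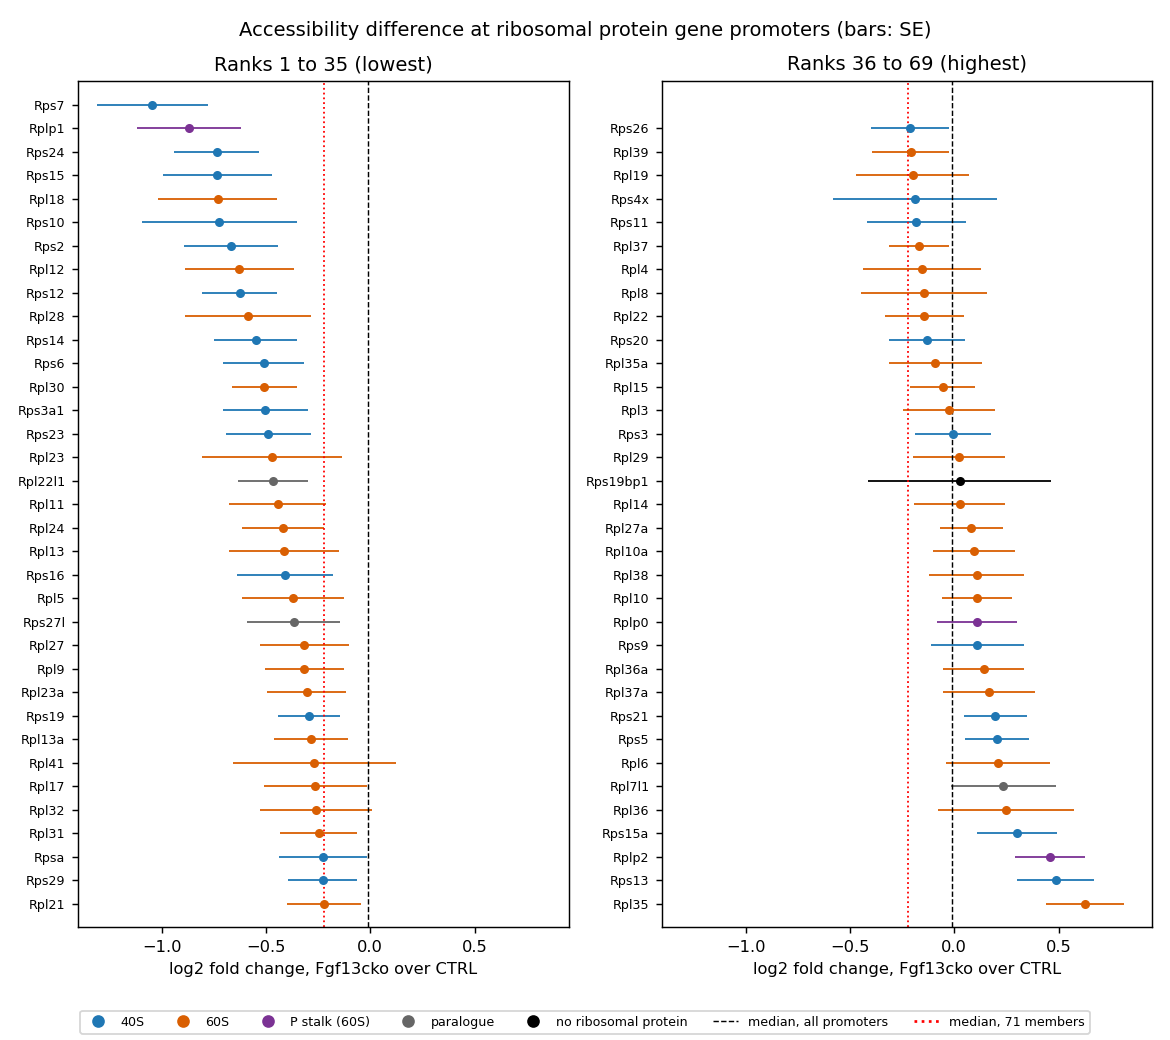
Log2 fold change (Fgf13cko over CTRL, x axis) of 69 promoters (y axis) in rank order over both panels, with the SE as bars and the role as colour. The black dashed line marks the median of all promoters (-0.01) and the red dotted line that of all 71 members (-0.22); points run from -1.05 at Rps7 to 0.63 at Rpl35, and more of them lie left of 0 than right of it.

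The separate libraries showed the same lean. At 32 members (45.1%) both Fgf13cko libraries lay below both CTRL libraries, as they did at 25.2% of all promoters. At 9 members (12.7%) both lay above, as at 26.1% of all promoters, and the groups overlapped at the other 30 members. Summed over the 71 promoters, the share of all promoter tags was 0.477% and 0.515% in Fgf13cko, against 0.557% and 0.571% in CTRL. Exact binomial 95% intervals, which cover counting error only, were 0.465% to 0.488% and 0.503% to 0.528% in Fgf13cko, and 0.546% to 0.569% and 0.560% to 0.582% in CTRL. The means were 0.496% ± 0.0275 in Fgf13cko and 0.564% ± 0.00933 in CTRL (SD, n = 2 each), a ratio of 0.879. Both Fgf13cko libraries were lower, but an exact two-sided permutation test of 2 libraries against 2 gave p = 0.333, the smallest it allows. In cultures of mixed cells, fewer cells of a type and less open chromatin per cell cannot be told apart.

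Among the 40S genes the median log2 fold change was -0.23, and 19 of 25 were negative. Rps7, a 40S protein gene mutated in Diamond-Blackfan anaemia, had the lowest value of all members. Its promoter region (chromosome 12, 28635388 to 28636290, over the start site and the first intron) held normalised counts of 35.6 and 35.8 in Fgf13cko, against 66.3 and 81.0 in CTRL. The Fgf13cko libraries were nearly equal and both below CTRL, with a log2 fold change of -1.05 (SE 0.27, adjusted p = 0.0636, edgeR quasi-likelihood test). Over 15 other settings the log2 fold change stayed between -1.18 and -0.90. Of those that kept all 4 libraries, it passed the threshold with library sizes over nuclear tags, in promoters averaging 50 counts or more, and with an offset for region length. DESeq2 gave it no adjusted p. Not counted among these settings are library size over all tags, mitochondrial ones included, the fit without chromosome 7, and a crossed pairing of replicates. The crossed pairing, added after seeing the data, also called Rps7 lower.

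Rps24, whose product is also a 40S protein and also mutated in that anaemia, held 60 and 63.6 in Fgf13cko, against 105 and 101 in CTRL (chromosome 14, 24490555 to 24491417). Here the replicates of each group were close and the groups lay apart, with a log2 fold change of -0.74 (SE 0.20, adjusted p = 0.0813, edgeR). Rps15, which encodes a protein of the 40S head near the decoding site, held 38.9 and 54.3 in Fgf13cko, against 85.8 and 69.4 in CTRL, with no overlap (log2 fold change -0.73, adjusted p = 0.155, edgeR). Rps10, a protein of the mRNA entry side of the 40S, held 20.0 and 43.9 in Fgf13cko, against 50.7 and 54.5 in CTRL. Both Fgf13cko libraries were lower there too, but the gap between them was wider than the gap to the CTRL libraries (log2 fold change -0.72, adjusted p = 0.313, edgeR).

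Further 40S genes with both Fgf13cko libraries below both CTRL libraries and an unadjusted p under 0.05 were Rps2, Rps12, Rps14, Rps6, Rps3a1 and Rps23. They are given because the count of 14 rests on them, and all but Rps6 were picked after their values were seen. Rps6 encodes the substrate of the S6 kinases. Its promoter held 97.8 and 139 in Fgf13cko, against 164 and 173 in CTRL (log2 fold change -0.51, adjusted p = 0.174, edgeR). Rps12, in the beak of the 40S head, held 91.2 and 89.0 in Fgf13cko, against 138 and 140 in CTRL (-0.63, adjusted p = 0.0895, edgeR), where replicates of both groups agree closely. Rps19 held 298 and 275 in Fgf13cko, against 326 and 375 in CTRL (-0.29, adjusted p = 0.31, edgeR), again without overlap. Rpsa, which encodes a 40S protein also known as the laminin receptor, overlapped at 153 and 106 in Fgf13cko and 132 and 172 in CTRL.

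At the other end of the 40S, Rps13 and Rps15a encode proteins that bind the central domain of the small subunit's RNA. Rps13 held 178 and 201 in Fgf13cko, against 156 and 116 in CTRL (chromosome 7, 116333773 to 116334685), a log2 fold change of 0.49 (SE 0.18, adjusted p = 0.175, edgeR). Rps15a held 118 and 146 in Fgf13cko, against 97.5 and 116 in CTRL (0.30, adjusted p = 0.425, edgeR). The Fgf13cko libraries were the higher at both genes, narrowly so at Rps15a.

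Among the 42 genes of the 60S subunit the median log2 fold change was -0.20, and 29 were negative. The 3 proteins of the stalk, which draws the GTPase factors of translation to the ribosome, were split. Rplp1 held 46.7 and 56.6 in Fgf13cko, against 77.1 and 111 in CTRL (chromosome 9, 61914251 to 61915004; log2 fold change -0.87, SE 0.25, adjusted p = 0.0895, edgeR). Rplp2, its binding partner in the stalk, held 187 and 165 in Fgf13cko, against 122 and 134 in CTRL (chromosome 7, 141447099 to 141447895; 0.46, SE 0.17, adjusted p = 0.159, edgeR). Rplp0, the anchor of the stalk, held 119 and 118 in Fgf13cko and 96.6 and 122 in CTRL (0.11, adjusted p = 0.808, edgeR). Fgf13cko was thus below CTRL without overlap at Rplp1, above it without overlap at Rplp2, and within the CTRL range at Rplp0.

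Rpl35, a protein beside the exit of the peptide tunnel, had the highest fold change of all members. Its region (chromosome 2, 39004653 to 39005662) held 158 and 132 in Fgf13cko, against 98.5 and 89.2 in CTRL, a log2 fold change of 0.63 (SE 0.19, adjusted p = 0.0988, edgeR). Both Fgf13cko libraries stood above both CTRL libraries, and over 15 other settings the value stayed between 0.49 and 0.75. Rpl18, a 60S protein, held 32.2 and 46.2 in Fgf13cko, against 69.3 and 61.1 in CTRL (-0.73, adjusted p = 0.188, edgeR), again without overlap but in the other direction. Rpl12 and Rpl30 completed the 60S genes with an unadjusted p under 0.05 and lower counts, with values of -0.63 and -0.51, and were likewise named after seeing the values.

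Rpl5 and Rpl11, which carry the 5S RNA into the ribosome and bind Mdm2 when assembly fails, had log2 fold changes of -0.37 and -0.44. Rpl11 held 53.4 and 76.3 in Fgf13cko, against 87.8 and 88.4 in CTRL, so the CTRL libraries were close together and above both others (adjusted p = 0.319, edgeR). Rpl5 held 77.8 and 71.7 in Fgf13cko and 74.1 and 118 in CTRL, and the groups overlapped (adjusted p = 0.438, edgeR). The other 60S genes followed by name (Rpl13a, Rpl39, Rpl37, Rpl4, Rpl22, Rpl15, Rpl3, Rpl10, Rpl36a, Rpl6 and Rpl36) lay between -0.28 at Rpl13a, a protein also known as a translational silencer in inflammation, and 0.25 at Rpl36. None of these had an unadjusted p under 0.05. Rpl10, which is added late in 60S assembly near the P site, held 162 and 141 in Fgf13cko and 137 and 145 in CTRL, with overlap (log2 fold change 0.11). Rpl3, which lines the peptidyl transferase centre, had 66.7 and 78.6 in Fgf13cko and 68.3 and 79.3 in CTRL, almost the same range.

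Of the paralogues, Rpl22l1 held 127 and 149 in Fgf13cko, against 202 and 179 in CTRL (-0.47, adjusted p = 0.158, edgeR), and Rps27l, a p53 target, 86.7 and 64.7 in Fgf13cko, against 87.8 and 107 in CTRL (-0.37, adjusted p = 0.394, edgeR). In both genes the groups did not overlap. Rpl22 itself overlapped at 129 and 180 in Fgf13cko and 183 and 159 in CTRL. Rpl7l1 had 0.23 and Rps19bp1 0.03, both with overlapping groups. The 15 members mutated in Diamond-Blackfan anaemia had a median of -0.29, and the 4 X-linked members, Rpl10, Rpl36a, Rpl39 and Rps4x, one of -0.04.

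**Figure D2:**
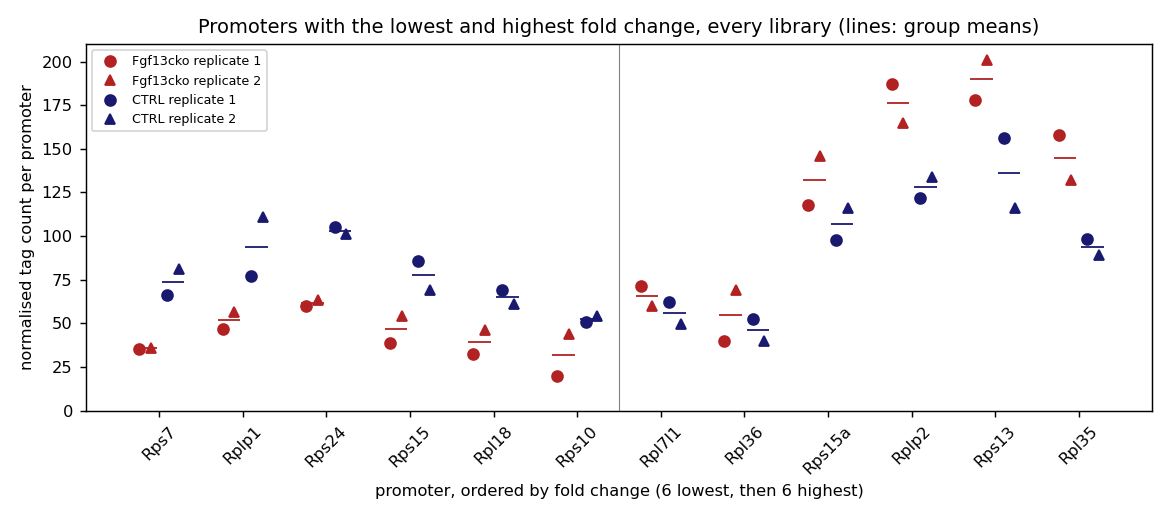
Normalised tag count (y axis, linear from 0) in each library at the 6 promoters with the lowest and the 6 with the highest fold change (x axis), Fgf13cko in red left of CTRL in dark blue, with lines at the group means. At Rps7 both Fgf13cko points lie near 36 and the CTRL points at 66.3 and 81.0; at Rpl35 the Fgf13cko points, 158 and 132, lie above the CTRL points, 98.5 and 89.2; at Rpl7l1 and Rpl36 the groups overlap.

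Over the members, the Fgf13cko libraries lay further apart than the CTRL libraries, and their difference went with region length. The median absolute log2 difference between replicates over the members was 0.26 in Fgf13cko and 0.18 in CTRL, and 3 members differed by over 2-fold between the Fgf13cko libraries, against 0 between the CTRL libraries. These were Rps10, with 20.0 and 43.9, Rpl41, with 51.1 and 124, and Rps19bp1, with 22.2 and 62.4, named after their values were seen. In each, Fgf13cko replicate 1 was the lower, and their regions were 538 to 592 bp long. Over the 71 members, the log2 difference of Fgf13cko replicate 1 minus replicate 2 was higher at longer regions, with a Spearman rho of 0.73 (Pearson r 0.66), and over all 11116 promoters a rho of 0.62 (r 0.47). These correlations are across promoters of the same libraries, which are not independent, and describe those libraries only.

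The fold change between the groups moved with region length as well, at a rho of 0.33 (r 0.27) over the members and 0.34 (r 0.29) over all promoters. The members' median of -0.22 therefore has to be read beside promoters of like length. Between 700 and 800 bp, 10 members had a median of -0.30 and 1095 other promoters one of -0.13. Between 800 and 900 bp, 12 members had -0.20 and 1406 others -0.05, and between 900 and 1000 bp, 17 members had -0.17 and 1377 others 0.00. Members were lower than the other promoters in every band except that up to 600 bp, where 6 members had -0.26 and 704 others -0.40. With an offset for region length in each library, a setting added after seeing the data, the members' median was -0.18 and 1564 promoters were called. Of the 71 members, 8 were then lower (Rps7, Rplp1, Rps24, Rps12, Rps6, Rpl30, Rps3a1 and Rpl22l1) and 3 higher (Rpl35, Rplp2 and Rps13). Over all promoters, this setting called 6.22% lower and 7.85% higher.

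**Figure D3:**
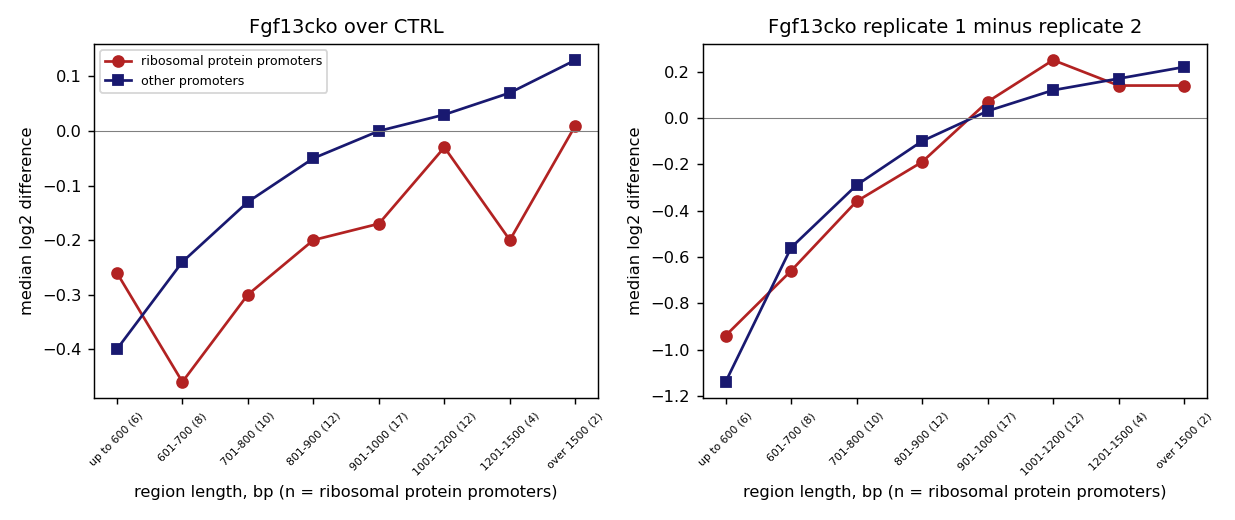
Median log2 difference (y axes) by length of the promoter region in bp (x axes, with the number of ribosomal protein promoters per band in brackets), for the members in red and all other promoters in dark blue. Left, Fgf13cko over CTRL: the members lie below the other promoters in each band but the shortest. Right, Fgf13cko replicate 1 minus replicate 2: both sets of promoters go from below 0 in short regions to above 0 in long ones.

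The members' place on chromosome 7 also went with their direction. Chromosome 7 holds 14 members, the most of any chromosome. Neither the look at this chromosome nor the cut at 80 Mb was among the planned comparisons. Beyond 80 Mb on it, the 392 promoters of all kinds had a median log2 fold change of 0.34, and the 6 members there, among them Rps3, Rpl27a, Rps13, Rps15a and Rplp2, one of 0.22, from -0.01 at Rps3 to 0.49 at Rps13. Before 80 Mb, the 411 promoters had a median of 0.06 and the 8 members one of -0.29, with Rpl18 the lowest. Of the 3 members with higher counts at an unadjusted p under 0.05, Rps13 and Rplp2 lie in the distal part and Rpl35 on chromosome 2. The 57 members on other chromosomes had a median of -0.23, with 13 lower and 1 higher at an unadjusted p under 0.05. All 10313 promoters off chromosome 7 had a median of -0.02, with 809 lower and 1079 higher by the same measure. Why the distal part stood apart was not tested.

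**Figure D4:**
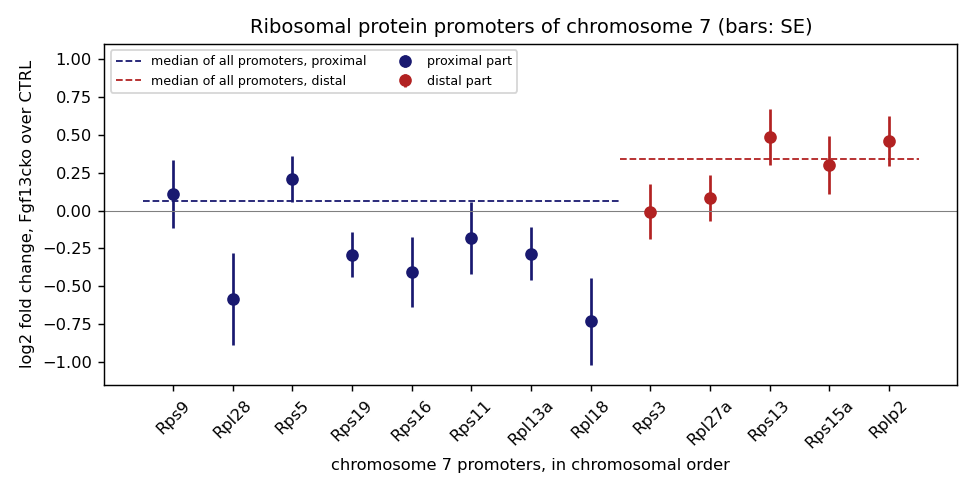
Log2 fold change (y axis, Fgf13cko over CTRL, bars SE) of 13 members of chromosome 7 in chromosomal order (x axis, evenly spaced), with dashed lines at the median of all promoters of the proximal (0.06) and distal (0.34) part. Of the 8 proximal members 6 lie below 0, and of the 5 distal members drawn 4 lie above it.

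Sequence features were set against the fold changes within the members. The median log2 fold change was -0.22 in the 20 members with the ETS motif and -0.24 in the 34 without it. For GGGCGG it was -0.19 in 36 members with the motif and -0.34 in 18 without, and for GCGCATGC 0.09 in 3 with and -0.23 in 51 without. For AAGATGG it was -0.21 in 7 with and -0.23 in 47 without, for CACGTG -0.24 in 4 and -0.22 in 50, and for TATAAA -0.21 in 5 and -0.23 in 49. It was -0.09 in the 17 members that start with C and -0.23 in the other 37. At 9 members the region also covered the start of a second gene on the opposite strand, such as Sphk2 at Rpl18, Lrsam1 at Rpl12, Lias at Rpl9 and Iqcg at Rpl35a. These 9 had a median log2 fold change of -0.47, against -0.21 for the other 62, and which gene's start the tags belong to cannot be told apart. Their regions were shorter, with a median of 829 bp against 904 bp. Second starts were sought only in the RefSeq promoter table, which lacks some genes, so the other 62 may hold some too. Level per length and fold change had a rho of 0.02 over the 71 members, which share their libraries.

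RefSeq lists 89 protein-coding genes with a ribosomal protein name of this form, and 18 of them fell outside the rule. Of these, 10 described here had a region at the gene that the table gives to a neighbour sharing it. For Rpl7 and Rps27a the region was found at an end of the gene's span, and whether that end is the start was not checked. In the fit over regions, 9 of 10 had a negative log2 fold change, with a median of -0.30, against -0.03 over all regions. That fit gave lower values than the promoter fit at Fau (-0.76 against -0.67) and Rack1 (-0.17 against -0.07). The -0.30 is thus not on the scale of the members' -0.22. It was not compared with other start sites, and the share of negative values over all regions was not counted. Of the 10 regions, 0 were called by edgeR, and Rps27a had an unadjusted p under 0.05. Rpl26, at a region given to Gm15772, held 20.5 and 33.6 in Fgf13cko, against 39.5 and 55.4 in CTRL (log2 fold change -0.81, adjusted p = 0.26, edgeR over regions). The groups did not overlap there, and the gene was named after its values were seen. Rps27a, a fusion of ubiquitin with a 40S protein, had -0.58, while Rps27 had 0.21, the single positive value. Fau, the gene of the 40S protein eS30, had -0.67 in the promoter fit, with 37.8 and 45.1 in Fgf13cko, against 76.1 and 56.2 in CTRL (adjusted p = 0.219, edgeR). Rack1, the 40S scaffold, had -0.07.

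Away from the start sites, 46 tested regions were assigned to the nearest ribosomal protein gene from over 1000 bp away, and 5 of them (10.9%) passed the threshold, against 7.52% of all 28814 regions tested. A region at -71070 bp from the start of Rpl38, with 157 and 79.7 in Fgf13cko, against 33.6 and 32.0 in CTRL, rose (log2 fold change 1.85, SE 0.34, adjusted p = 0.0157, edgeR). At Rps24 a region 88467 bp from the start rose, with 226 and 191 in Fgf13cko, against 101 and 112 in CTRL (0.96, adjusted p = 0.0209, edgeR), where the Rps24 promoter itself had -0.74. At Rpl11 a region at -41661 bp rose, with 88.9 and 83.9 in Fgf13cko, against 39.5 and 27.7 in CTRL (1.37, adjusted p = 0.0216, edgeR). The Rpl11 promoter had -0.44, so at both genes the distant region that rose stood beside a promoter with a negative log2 fold change that did not pass the threshold. The region at -11815 bp from Rps27l fell, with 27.4 and 24.1 in Fgf13cko, against 73.0 and 67.5 in CTRL (-1.45, adjusted p = 0.021, edgeR), and one nearest to Rpl10l rose (0.85, adjusted p = 0.0498, edgeR). Assignment is by nearest start only, and whether these regions act on the named gene was not tested.

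Other gene groups of the ribosome and its control were set beside the members. Over all these lists, 0 of 157 tested promoters passed the threshold in edgeR's test or in DESeq2's. At an unadjusted p under 0.05 edgeR gave 11 of the 157 higher and 15 lower, where it gave 11.7% higher and 7.54% lower over all promoters. DESeq2 gave no adjusted p at Fau, which it therefore could not call. The median of all promoters was -0.01. The 2 tested ribosomal protein genes with other names, Fau and Rack1, had a median of -0.37. Over 12 tested TOP translation genes, which carry the same start motif but encode factors and not ribosomal proteins, the median log2 fold change was -0.31 and 9 were negative. At an unadjusted p under 0.05, 4 of the 12 were lower and 0 higher, against 7.54% lower and 11.7% higher of all promoters. Without CTRL replicate 2 the median of these genes was -0.18, and with library sizes that count the mitochondrial tags it was 0.59, against 0.89 over all promoters. Pabpc1, the poly(A)-binding protein gene, held 213 and 180 in Fgf13cko, against 285 and 332 in CTRL (-0.65, adjusted p = 0.0575, edgeR), and Tpt1, the tumour protein TCTP, 260 and 245 in Fgf13cko, against 311 and 352 in CTRL (-0.39, adjusted p = 0.174, edgeR). Both genes had their Fgf13cko libraries below their CTRL libraries.

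The 59 mitochondrial ribosomal protein promoters, which serve a separate ribosome, had a median of 0.00, with 29 negative. Of these, Mrps9 had -0.61 (adjusted p = 0.0748, edgeR) and Mrpl41 0.40 (adjusted p = 0.149, edgeR). The 24 ribosome biogenesis promoters had a median of -0.01, with 0.60 at Nop10 and -0.47 at Nop56, subunits of snoRNA particles that modify ribosomal RNA. At an unadjusted p under 0.05, 5 of these 24 were lower and 2 higher, against 7.54% lower and 11.7% higher over all promoters. Both Fgf13cko libraries lay below both CTRL libraries at 8 of them and above at 4, against 25.2% and 26.1% over all promoters. The 21 promoters of RNA polymerases I and III had -0.02, with 0.53 at Polr3e and 0.54 at Polr3k. The 17 promoters of mTOR and translation control had -0.05, with 0.55 at Eef2k, the kinase of elongation factor 2, and -0.41 at Tsc1, an inhibitor of mTOR. Candidate factors of ribosomal protein promoters had -0.03 over 15, with 0.55 at Elk1 and -0.50 at Tbpl1, a TBP-like factor. Genes of ribosome rescue and surveillance had -0.13 over 7, with -0.37 at Nvl and -0.31 at Hbs1l. Leaving out 1 library at a time gave medians of -0.12 to 0.03 for the biogenesis genes and -0.15 to 0.13 for the polymerases. The differences between the members and these lists were not tested.

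Markers of cell types were followed beside these results. Of 12 neural stem cell and radial glia markers, 2 rose: Fabp7 (log2 fold change 0.81, adjusted p = 0.0237, edgeR) and Nes (0.80, adjusted p = 0.0492, edgeR). DESeq2's Wald test called 1 of the 12, and edgeR called 1.95% of all promoters higher. The summed normalised promoter counts of the 12 markers were 2920 and 2610 in Fgf13cko and 2370 and 2680 in CTRL. Of 8 neuronal markers 5 were tested and 2 rose, Syt1 (0.95, adjusted p = 0.0161, edgeR) and Map2 (0.79, adjusted p = 0.045, edgeR), while DESeq2's Wald test called 1. Of the other 3, Snap25 had 0.58 (adjusted p = 0.113, edgeR), Tubb3 -0.03 (adjusted p = 0.985, edgeR) and Neurod1 -0.66 (adjusted p = 0.58, edgeR). The 5 summed to 648 and 728 in Fgf13cko and 413 and 431 in CTRL, most of it at Map2, Syt1 and Snap25. Rbfox3, Dcx and Stmn2 had no tested promoter region. Astrocyte (4 of 6 tested), oligodendrocyte lineage (3 of 6), microglia (1 of 6), endothelial and pericyte (3 of 6) and meningeal (2 of 6) markers had 0 called. The summed neuronal promoter counts were thus higher in Fgf13cko, and their part in the ribosomal protein result was not tested.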

How the data were processed

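ATAC-seq tags were measured in 4 libraries, 2 of Fgf13cko and 2 of CTRL, grouped by their titles. Per the file headers, the region table deposited by the authors holds estimated counts: raw tag counts per merged broad peak on mm10, from HOMER, without normalisation. Bowtie2, MACS2, Picard, HOMER and DESeq2 appear in the submitters' processing notes. Their versions, any read shifting and duplicate handling were not stated there. All counts were multiples of 0.5 (50.2% whole) and were rounded before testing. The authors' deposited peak lists give a score, a fold enrichment (ratio) and -log10 p and q per peak, of which the fold enrichment was used to describe peaks.

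Counts were summed per gene over regions within 1000 bp of the start site, and the 2 mitochondrial regions were left out. Promoters were tested with edgeR 4.0.16 in R 4.3.3 (robust glmQLFit, glmQLFTest, two-sided, TMM, filterByExpr, Benjamini-Hochberg, 0.05), with all 4 libraries and no covariate, and regions likewise. For promoters, edgeR's common biological coefficient of variation was 0.127. The edgeR promoter fit was tried on simulated counts with a coefficient set below that value and no effect of region length. The fit over regions and the alternatives were not tried in this way. A normalised count is the count over the library's effective size relative to the mean of all 4. Fold changes are log2 values of that fit. Their SE, also drawn as bars in the figures, is not given by edgeR. It was derived as the absolute log2 fold change over the square root of the test's F value. Alternatives used DESeq2 1.42.0, limma 3.58.1 loess offsets, other scalings, filters and promoter windows, and left out each library. Depth was 1.34 to 1.89 M promoter tags per library, and p-values reflect 2 libraries a group. Same-numbered libraries were not taken as pairs, since the correlation of same-numbered deviations was -0.16.

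The members, gene lists and tests were chosen with earlier results of these data known. Genes were named by rule: members past the threshold, the 6 with the highest and the 6 with the lowest log2 fold change, the 4 highest and the 4 lowest per kb, a fixed list of well-known members, and up to 2 genes with the smallest p per pathway list. Exceptions are stated beside them, and some genes that the rules would name are not reported here. Promoter sequences are from RefSeq GRCm38.p6.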

Additional observations from a re-analysis of the deposited data

How the results depend on the processing

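The members' median log2 fold change (-0.22) stayed between -0.25 and -0.18 in all alternatives but 2: it was -0.34 with library sizes over nuclear tags and 0.68 with library sizes over all region tags, which count mitochondrial tags. In that last setting 48 members, 9046 promoters and 17699 regions were called. Fold changes negative in the report turned positive and passed the threshold there at Rpl4 (0.74), Rps19 (0.61), Rpl15 (0.84), Rpl37 (0.73), Rpsa (0.67), Rpl3 (0.87), Rpl13a (0.62), Rpl22 (0.76), Rpl22l1 (0.43), Rpl39 (0.69), Rps27l (0.53), Rack1 (0.83), Tpt1 (0.51), Nop56 (0.43), Tsc1 (0.48), Tbpl1 (0.39), Nvl (0.53) and Hbs1l (0.58). Against the 270 promoters called by the reported test, 158 were called with nuclear library sizes, 428 with a loess offset on abundance, 129 by DESeq2, 438 in promoters averaging 50 counts or more and 1564 with an offset on region length, a setting chosen after seeing the data. Of the members, 1 was lower with nuclear library sizes, 1 in promoters averaging 50 counts or more, and 8 lower and 3 higher with the length offset. Over all promoters, these settings called 0.729%, 1.16% and 6.22% lower, and the length offset called 7.85% higher. Leaving out 1 library at a time called 0 to 2761 promoters, 138 to 10120 regions, 0 to 2 members higher and 0 to 23 lower, with medians of -0.25 to -0.19 and a share difference of -0.0875 to -0.0487 percentage points (reported: -0.0681). Such a fit leaves 1 library in a group, so these counts show only how far the calls swing and rank no promoter. In the fits that called members, promoters as a whole were also called more often than in the reported test, in both directions. The member counts are therefore not read as a result for the members. The cause of these shifts was not tested. With the replicate number as a block, 376 promoters, 3306 regions (reported: 2168) and 0 members were called, and the members' median was -0.22; the labels do not say that the numbers pair the samples. A crossed pairing, also added after seeing the data, called 823 promoters, 4 members lower and 1 higher. Over all promoters, it called 2.49% lower and 4.91% higher. For named promoters, 641 comparisons with an alternative kept direction and side of the threshold, 72 newly passed it, and 31 changed sign with neither value past it. For list medians, 104 moved by less than the spread between libraries, 6 of them with a change of sign, and 24 moved by more, 10 of them with a change of sign. Named promoters at which DESeq2 gave no adjusted p, such as Rps7, are counted above as keeping their side of the threshold. Depth limits single members: the median promoter held 80 tags in each Fgf13cko library.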

Other observations

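Some genes with a ribosomal protein name fell outside the rule because no promoter region carried their name. Of these, Rps23rg1, a retroposed copy of Rps23, had a peak at its start in both Fgf13cko peak lists and in 0 of the CTRL lists. It is thus outside the region table, which holds regions with a peak in all 4 libraries. The paralogues Rpl3l, Rpl10l, Rpl39l, Rpl32l, Rpl37rt and Rps27rt had a peak at their start in 0 libraries. These are counts of peaks that the authors called in each library separately, at 64954 and 54373 peaks in the Fgf13cko lists and 38006 and 47148 in the CTRL lists, and were not tested.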
